A study of Mus musculus with 50 samples.

Results

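The 8 mouse genes described here were measured in 50 mammary tumours: D17H6S56E-5, Vars, D730005E14Rik, Apobec3, 2610507I01Rik, Prss35, Nnt and Glo1. The first 6 were picked from these same log2 values because they or a close neighbour sat at 2 separate levels across tumours, and Nnt and Glo1 because inbred mouse strains are known to differ in them. They are 8 of 18045 genes tested and of 22180 genes with a probe set that reads 1 gene. Each has 1 such probe set, and all 8 passed the filter on low values, a mean of at least 4.09 log2. Their levels are therefore a description with no test. The gene lists used below were also chosen with earlier results of these data known, so the tests are not fully independent of the choice.

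All 50 tumours form 1 group in the labels, with 1 Affymetrix array each. The mice were females with MMTV-Erbb2, a transgene whose mouse mammary tumour virus promoter drives the receptor kinase Erbb2 in mammary epithelium, and tumours arose spontaneously. C57BL/6J x FVB/NJ hybrids were crossed back to FVB/NJ mice with the transgene. Biopsies preceded drug treatment. The drug is doxorubicin by the title of the series but docetaxel by the labels of its samples, and response was not analysed here.

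A backcross deals each offspring, at every autosomal locus, either both copies from the FVB/NJ parent strain or 1 copy of each strain. A variant near a gene that alters its own RNA then gives 2 groups of mice at that gene, and genes close to it on the chromosome are inherited along with it. Such differences are known as cis effects, and the major histocompatibility complex (MHC) on chromosome 17, the Apobec3 locus on chromosome 15, Nnt and Glo1 are all known to vary between inbred strains. Genotypes of these mice were not used here, so no level was set against inheritance. Probe sequences were not used either.

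A set of 3 arrays stood apart from the rest. Correlated with each other array in turn, an array averaged r = 0.978 at the median, but 0.916 in mid79, 0.931 in mid60 and 0.954 in mid100, with 0.967 in the next. The 8 luminal epithelium markers averaged 7.22 log2 in mid79, 10.02 in mid60 and 9.50 in mid100, against 9.60 to 10.04 in the other 47 tumours, and Erbb2 itself averaged 11.58 ± 0.54 (SD, n = 50). Adipocyte markers were at 11.37 in mid79 (4.78 to 6.95 in the others), skin markers at 9.64 in mid60 (4.78 to 5.11) and B cell markers at 8.09 in mid79 and 7.18 in mid60 (4.27 to 5.72). In a biopsy, fewer cells of a type and less RNA per cell cannot be told apart. Results that rest on these arrays are given with and without them.

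The linked pairs are next to each other or overlap in the annotation, and their start regions are shown because the genes of each pair moved together. The sequences are RefSeq's, on GRCm38.p6, given for the 6 of the 8 genes that matched the promoter table and printed for 3 of them. The start of D17H6S56E-5 in that table lies 160 bases from the nearest edge of the annotated span of Vars. These bases lie at chr17:35000747-35000906, read here on the minus strand towards D17H6S56E-5, with 68.8% G and C. The annotated span of D17H6S56E-5 reaches beyond that start, so the last of these bases lie inside it. D730005E14Rik, on the minus strand, and Apobec3, on the plus strand, share 1081 bases of their annotated spans on chromosome 15. The 250 bases before a start of Apobec3 (chr15:79892158-79892407, plus strand, 61.2% G and C) lie wholly inside the span of D730005E14Rik. The 250 bases before the start of D730005E14Rik (chr15:79893139-79893388, minus strand, 46.8% G and C) lie wholly inside that of Apobec3. Capitals mark motif matches.
D17H6S56E-5 to Vars: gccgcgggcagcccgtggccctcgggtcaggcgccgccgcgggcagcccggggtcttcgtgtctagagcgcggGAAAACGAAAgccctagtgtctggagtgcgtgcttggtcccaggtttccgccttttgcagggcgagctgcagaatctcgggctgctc
Apobec3: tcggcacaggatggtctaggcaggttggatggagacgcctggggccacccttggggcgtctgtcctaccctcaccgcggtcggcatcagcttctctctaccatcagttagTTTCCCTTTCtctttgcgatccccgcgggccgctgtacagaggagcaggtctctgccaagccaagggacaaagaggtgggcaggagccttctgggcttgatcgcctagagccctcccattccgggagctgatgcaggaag
D730005E14Rik: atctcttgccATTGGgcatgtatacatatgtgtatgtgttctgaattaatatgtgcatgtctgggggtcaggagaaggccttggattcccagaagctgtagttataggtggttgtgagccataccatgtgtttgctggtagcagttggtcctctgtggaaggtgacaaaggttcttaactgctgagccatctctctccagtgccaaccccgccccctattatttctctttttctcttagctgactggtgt

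Motifs of 3 kinds were searched on both strands in the 250 bases before each start: the interferon-stimulated response element, spelled TTTCNNTTTC or GAAANNGAAA, the CCAAT box (CCAAT or ATTGG) and the TATA box (TATAAA or TTTATA). The stretch from the start of D17H6S56E-5 to Vars held GAAAACGAAA at -87 to -78 from that start, and the printed Apobec3 window held TTTCCCTTTC at -140 to -131. A second start of Apobec3 in the table, whose window (chr15:79894773-79895022) shares 0 bases with the span of D730005E14Rik, had no such element but CCAAT at -97 to -93 and TTTATA at -21 to -16. Of 32851 such windows over all genes in the table, 978 (2.98%) held this element. The window of D730005E14Rik held ATTGG at -240 to -236, as 33.8% of windows hold that box, and a TATA box, held by 12.4% of windows, was in none of the 3 printed. A match is a run of letters and not a shown binding site.

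Of the 8 genes, 4 sat at 2 levels with few or no tumours between them. They were called where a mixture of 2 normal components of equal variance beat 1 component by over 10 units of the Bayesian information criterion (BIC), a measure of fit that charges for added parameters. Over all tested genes 1483 of 18045 (8.22%) passed this rule, and 68 (0.377%) passed it with at least 10 tumours on each level. Among those, D730005E14Rik ranked 2, D17H6S56E-5 ranked 3 and 2610507I01Rik ranked 5 by BIC difference, behind Tfap2b, which codes for the transcription factor AP-2 beta, at rank 1. The choice of genes used these values, so nothing further is read from the ranks.

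D17H6S56E-5, also called G7e, is a gene of the MHC class III region. Its lowest value was 6.56 log2 in mid26, the median 9.08 and the highest 10.7 in mid186. The 29 tumours on the upper level had a component mean of 9.64 and the 21 on the lower level 6.95, a difference of 2.69 log2 or 6.45-fold, with a common SD of 0.38 (BIC difference 52.1). No tumour lay between 7.52 (mid85) and 8.85 (mid16), and 0 tumours were unclear, meaning a probability of 0.05 to 0.95 of being on the upper level. The upper share was 58.0% (exact Clopper-Pearson 95% interval 43.2 to 71.8%, which covers counting error only).

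D730005E14Rik is a long noncoding RNA in the annotation. It ran from 4.42 in mid177 over a median of 5.40 to 9.22 in mid130. Its 19 upper tumours had a component mean of 8.05 and its 31 lower tumours 5.16, 2.89 log2 or 7.42-fold apart with a common SD of 0.40 (BIC difference 55.5). The empty stretch ran from 5.83 (mid23) to 7.30 (mid71), 0 tumours were unclear, and the upper share was 38% (24.7 to 52.8%).

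2610507I01Rik, another long noncoding RNA, on chromosome 11, ran from 4.67 in mid36 over a median of 7.25 to 8.06 in mid122. The 28 upper tumours averaged 7.52 and the 22 lower ones 5.42 as component means, 2.10 log2 or 4.3-fold apart with a common SD of 0.32 (BIC difference 45.5). Its gap was narrower, from 6.10 (mid117) to 6.82 (mid79), and the upper side of it begins at one of the 3 arrays that stood apart. The upper share was 56.0% (41.3 to 70.0%) and 0 tumours were unclear.

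Prss35, on chromosome 9, codes for a secreted protein of the trypsin-like serine protease family, and it had another shape. It ran from 4.72 in mid7 over a median of 5.30 to 9.57 in mid182. Only 8 tumours were on the upper level, with a component mean of 8.71, and 42 on the lower one, at 5.28. The difference was 3.43 log2 or 10.8-fold, the largest of the 4, with a common SD of 0.45 (BIC difference 57.2), and the upper share was 16% (7.17 to 29.1%). The 2 sides met at 6.70 (mid37) and 7.11 (mid128), 1 tumour was unclear, and the widest gap lay higher, from 7.11 to 8.36, with 7 tumours above it. Unlike the other 3, Prss35 was high in a small set of tumours.

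**Figure D1:**
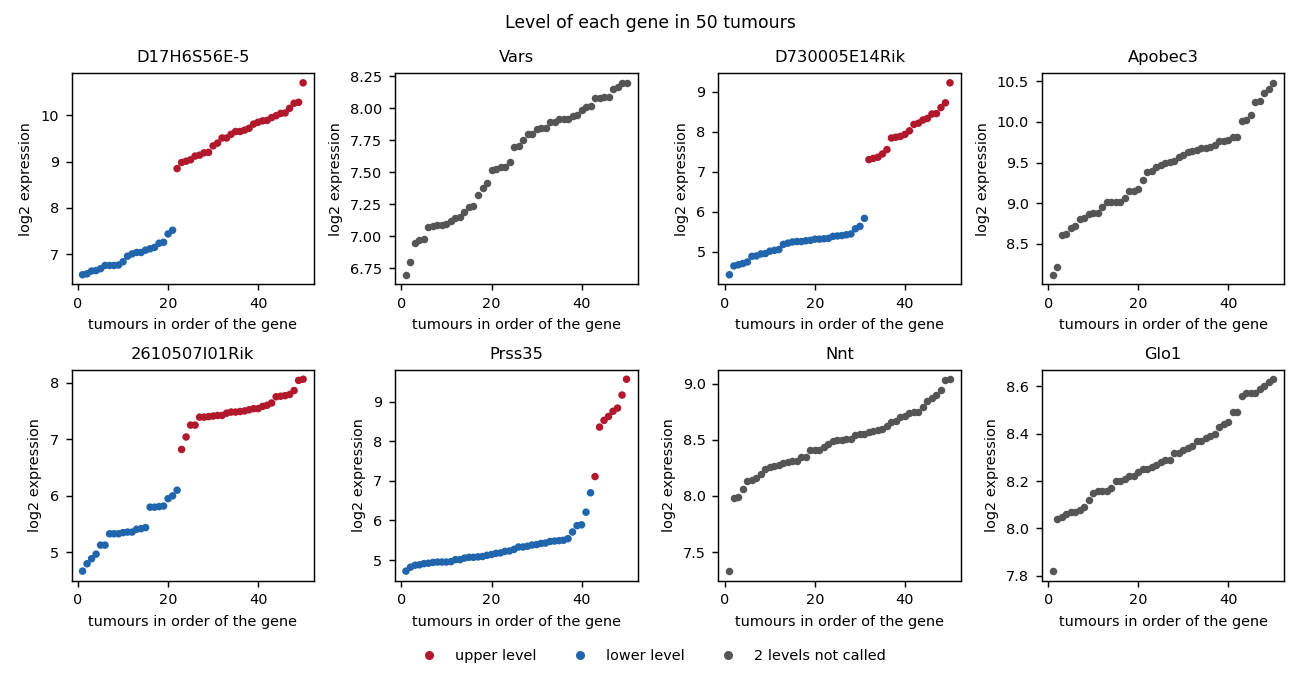
Sorted log2 expression (vertical axis) of the 8 genes in 50 tumours (1 point each, in the order of the gene); red and blue mark the upper and lower level where 2 levels were called, and grey the genes without. D17H6S56E-5, D730005E14Rik and 2610507I01Rik show empty stretches of 1.33, 1.47 and 0.72 log2, while Prss35 is high in 8 tumours.

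The other 4 genes did not pass the rule. In simulated data with 2 equal groups, the rule called 99% of cases at a gap of 5 SD but 5% at 3 SD. A gene that did not pass can therefore still have 2 levels that lie closer together. Vars, which codes for the valyl-tRNA synthetase that charges tRNA with valine, ran from 6.70 in mid79 over a median of 7.70 to 8.20 in mid125 and mid130, with a BIC difference of 9.0, just under the threshold. Fitted with 2 components it gave 31 tumours at 7.90 and 19 at 7.14, 1.7-fold apart, with 7 unclear. Without the 3 arrays that stood apart the BIC difference of Vars was 11.9, and after another quantile normalization 12.4, and both pass. Apobec3, a cytidine deaminase that restricts retroviruses, ran from 8.12 in mid79 over 9.48 to 10.48 in mid54 (BIC difference -6.9). Its widest gap, from 8.21 to 8.61, had 48 of the tumours above it, and 36 tumours were unclear between 2 fitted components.

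Nnt codes for the transhydrogenase that makes NADPH in mitochondria, and C57BL/6J mice are known for a deletion in it. It ran from 7.33 in mid60 over a median of 8.50 to 9.04 in mid7 (8.47 ± 0.31, SD, n = 50), with a BIC difference of -0.6, and 1 tumour, mid60, lay 0.65 log2 below the next. Glo1 codes for glyoxalase I, which detoxifies methylglyoxal, and copy number of its region is known to vary between strains. It ran from 7.82 in mid177 over 8.28 to 8.63 in mid101 (8.30 ± 0.18), with a BIC difference of -6.5. Its SD was at the 32.2 percentile of tested genes, that of Nnt at the 70.0 percentile and that of D730005E14Rik at 99.8. The 5th and 95th percentiles of Glo1 lay 1.45-fold apart, against 1.87-fold for Nnt, 2.3-fold for Vars, 3.25-fold for Apobec3 and 7.48-fold to 15.2-fold for the 4 genes with 2 levels. In these values Nnt and Glo1 showed no break like that of the first genes, and whether their probe sets read the part of the gene that differs between strains was not tested.

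The levels of genes on different chromosomes were set side by side. D17H6S56E-5 and D730005E14Rik were on the same side in 24 of 50 tumours (48%), D17H6S56E-5 and 2610507I01Rik in 19 (38%), and D730005E14Rik and 2610507I01Rik in 29 (58.0%). Of the 3, none was on the upper level in 5 tumours, 1 in 20, 2 in 19 and all 3 in 6, and each of the 8 possible combinations occurred at least once. By contrast, D17H6S56E-5 and the 2 fitted components of its neighbour Vars were on the same side in 48 of 50 tumours (96.0%), 29 upper and 19 lower for both. The 2 exceptions were mid111, at 6.64 for D17H6S56E-5 and 7.53 for Vars, and mid7, at 7.44 and 7.52, both low for D17H6S56E-5 and just inside the upper component of Vars. These counts are descriptions with no test.

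To find which genes followed each level, every tested gene was regressed with limma on the log2 value of 1 of the 8 genes over the 50 tumours, and called at a Benjamini-Hochberg adjusted p under 0.05 over all 18044 other genes. The slope is the log2 change of a gene per log2 unit of the predictor. Slopes between the 8 genes themselves are given as descriptions, since the pairs were chosen as neighbours.

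With D17H6S56E-5, 5 genes were called (0.0277% of all tested), and all 5 lay on its own chromosome, where 885 genes were tested (0.565%). All 5 were higher where D17H6S56E-5 was higher. Vars, 1 place away in gene order, led with a slope of 0.28 ± 0.02 (SE) and r = 0.911. The MHC class I gene H2-T23, which codes for Qa-1, a ligand of natural killer cell receptors, followed at 62 places, with a slope of 0.28 ± 0.03 (limma adjusted p = 1.01e-06, r = 0.754). H2-Eb1, a chain of the MHC class II molecule E, lies 35 places to the other side and had a slope of 0.34 ± 0.05 (adjusted p = 8.23e-05). H2-M2, a class I-like gene, had 0.21 ± 0.03 (adjusted p = 4.99e-05) and 9130008F23Rik 0.20 ± 0.03 (adjusted p = 2.01e-06), 96 and 105 places away.

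H2-T23 ran from 7.45 in mid127 over a median of 8.62 to 9.51 in mid142. H2-Eb1 ran from 5.33 in mid65 over 6.29 to 8.14 in mid100, one of the arrays that stood apart. All 5 calls with D17H6S56E-5 held under each of 9 other settings, including the fit without the 3 arrays. With Vars as a covariate, H2-Eb1 alone of the other 4 was called. Vars and D17H6S56E-5 had r = 0.911, so slopes in that fit are less precise.

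Between these genes lay many that did not follow. Of the 10 nearest tested neighbours of D17H6S56E-5, 5 to each side, only Vars was called. Hspa1a and Hspa1b, the inducible heat shock protein 70 genes 3 and 4 places away, had slopes of 0.16 ± 0.08 and 0.12 ± 0.07 (adjusted p = 0.749 and 0.811), and the spliceosome gene Lsm2 next to it 0.02 ± 0.03 (adjusted p = 0.914). Of 50 tested genes in the list for the MHC class III region, 0 were called, with 7 at an unadjusted p under 0.05. Of 12 MHC class I genes 1 was called and of 9 class II genes 1, and of 34 aminoacyl-tRNA synthetases only Vars. The median slope over all tested genes was -0.002, and those of the class I, II and III lists were 0.094, -0.001 and 0.006. Of the 10 marker and proliferation lists, none had a called gene with D17H6S56E-5.

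The share of genes with an unadjusted p under 0.05 fell with distance from D17H6S56E-5. It was 4 of 20 genes within 10 places, 17.5% of 80 at 11 to 50, 11.3% of 300 at 51 to 200, 7.63% of 485 further away and 6.35% on other chromosomes. For Vars it was 5 of 20 genes, then 21.2, 15.3, 11.1 and 8.41% over the same distances. Genes near each other are not independent, so these shares carry no test.

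With Vars as the predictor 11 genes were called, 8 higher and 3 lower (0.061%), of which 6 of 885 were on chromosome 17 (0.678%). D17H6S56E-5 had a slope of 2.96 ± 0.19, the steep side of the same relation, since Vars moved 1.7-fold where D17H6S56E-5 moved 6.45-fold. H2-T23 (slope 0.84 ± 0.12, adjusted p = 8.2e-05), H2-M2, 9130008F23Rik and H2-Eb1 (0.92 ± 0.19, adjusted p = 0.0413) recurred, and Snhg9, a small nucleolar RNA host gene on the same chromosome, was added at 0.22 ± 0.05 (adjusted p = 0.0413). H2-Eb1 was not called with no filter on low values (adjusted p = 0.0513) or by ranks of Vars (adjusted p = 0.0778). A further 5 genes, of other chromosomes, came close to the threshold, Ubtd1 and Nr6a1 higher and D130043K22Rik, Kcnk2 and Peg10 lower, with adjusted p of 0.0431 to 0.0494. In the fit without the 3 arrays none of those 5 was called (adjusted p = 0.0908 to 0.255), nor was Snhg9 (adjusted p = 0.0908), and the count was 6. No other aminoacyl-tRNA synthetase of 33 was called with Vars (median slope 0.058).

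With D730005E14Rik 3 genes were called (0.0166%), all higher and all among the 734 tested genes of chromosome 15 (0.409%). Apobec3, the next gene in order, had a slope of 0.29 ± 0.03 (r = 0.775). Cbx7, which codes for a Polycomb protein that binds methylated histone and lies 2 places away, had 0.15 ± 0.02 (limma adjusted p = 6.49e-05, r = 0.709), and Ttll1, a tubulin polyglutamylase subunit 72 places away, 0.16 ± 0.03 (adjusted p = 0.00254). Cbx7 ran from 6.31 in mid36 over a median of 6.67 to 7.39 in mid125. By the ranks of D730005E14Rik Ttll1 was not called (adjusted p = 0.0622).

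On its other side D730005E14Rik had Dnal4 as its nearest tested gene, with a slope of -0.00 ± 0.02 (adjusted p = 1.0), and none of the 5 genes there was called. Rpl3, a ribosomal protein gene 4 places on, had -0.10 ± 0.03 and was not called (adjusted p = 1.0, unadjusted p = 0.000343). Of the 14 genes for retrovirus restriction and interferon response 0 were called and 0 had an unadjusted p under 0.05. Apobec1 and Apobec2, the other tested members of the APOBEC family, were not called either.

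With Apobec3 as the predictor 2 genes were called (0.0111%), both higher and both on chromosome 15 (2 of 734, 0.272%). D730005E14Rik had a slope of 2.06 ± 0.24, and Slc25a17, a peroxisomal carrier gene 23 places away, 0.32 ± 0.05 (adjusted p = 0.00101). When mid79 and mid177, the most extreme tumours for Apobec3, were left out, Slc25a17 had an adjusted p of 0.0592. Cbx7, called with D730005E14Rik, had 0.28 ± 0.07 with Apobec3 (adjusted p = 0.25). Of the restriction and interferon genes none was called with Apobec3, and their median slope was -0.025 against 0.003 over all genes. Of 8 endothelial markers 6 had an unadjusted p under 0.05 with Apobec3 and a median slope of -0.386, without a call. The mean level of these markers was 9.78 in mid79, the tumour with the lowest Apobec3, and 9.79 in mid100, against 6.4 to 8.43 in the 47 tumours that did not stand apart. In the fit without the 3 arrays 0 of the 8 had an unadjusted p under 0.05, and their median slope was -0.09.

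With 2610507I01Rik 1 gene was called (0.00554%), on its own chromosome (1 of 1465, 0.0683%). This was Sap30l, which codes for a protein of a histone deacetylase complex, 37 places away with a slope of 0.14 ± 0.02 (adjusted p = 0.00533, r = 0.658). Sap30l ran from 6.71 in mid16 over a median of 7.28 to 7.75 in mid122, which also had the highest 2610507I01Rik. By ranks the call was lost (adjusted p = 0.267). The nearest neighbours were not called. Among them the ubiquitin ligase gene Trim11 had 0.08 ± 0.03 and the guanylate kinase gene Guk1 0.04 ± 0.02 (both adjusted p = 0.907), and 5 of the 20 genes within 10 places had an unadjusted p under 0.05 against 4.8% on other chromosomes.

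With Prss35 0 genes were called, on its own chromosome (0 of 1004) or elsewhere (0.0%), while 1071 of 18044 (5.94%) had an unadjusted p under 0.05. Me1, the cytosolic malic enzyme gene 2 places away, had a slope of 0.15 ± 0.04 (limma adjusted p = 0.62), and the strongest rank correlation among the 10 neighbours (rho = 0.589). With ranks of Prss35 in place of its values 41 of 18044 genes were called, 6 of them among the 1004 of chromosome 9. Me1 was among these 6 (limma adjusted p = 0.0199). The others were Mtmr2, Yipf2, Smad6, Cmtm6 and Gpd1l, all outside the 10 nearest neighbours. Cmtm6, 260 places away, had the same adjusted p as Me1, and Mtmr2, further away still, a smaller one (0.0185). No local pattern is read from these calls. Snap91, next to Prss35 on the side away from Me1, had a slope of -0.01 ± 0.01 on the values of Prss35. None of 18 other tested serine protease genes of the Prss family was called.

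**Figure D2:**
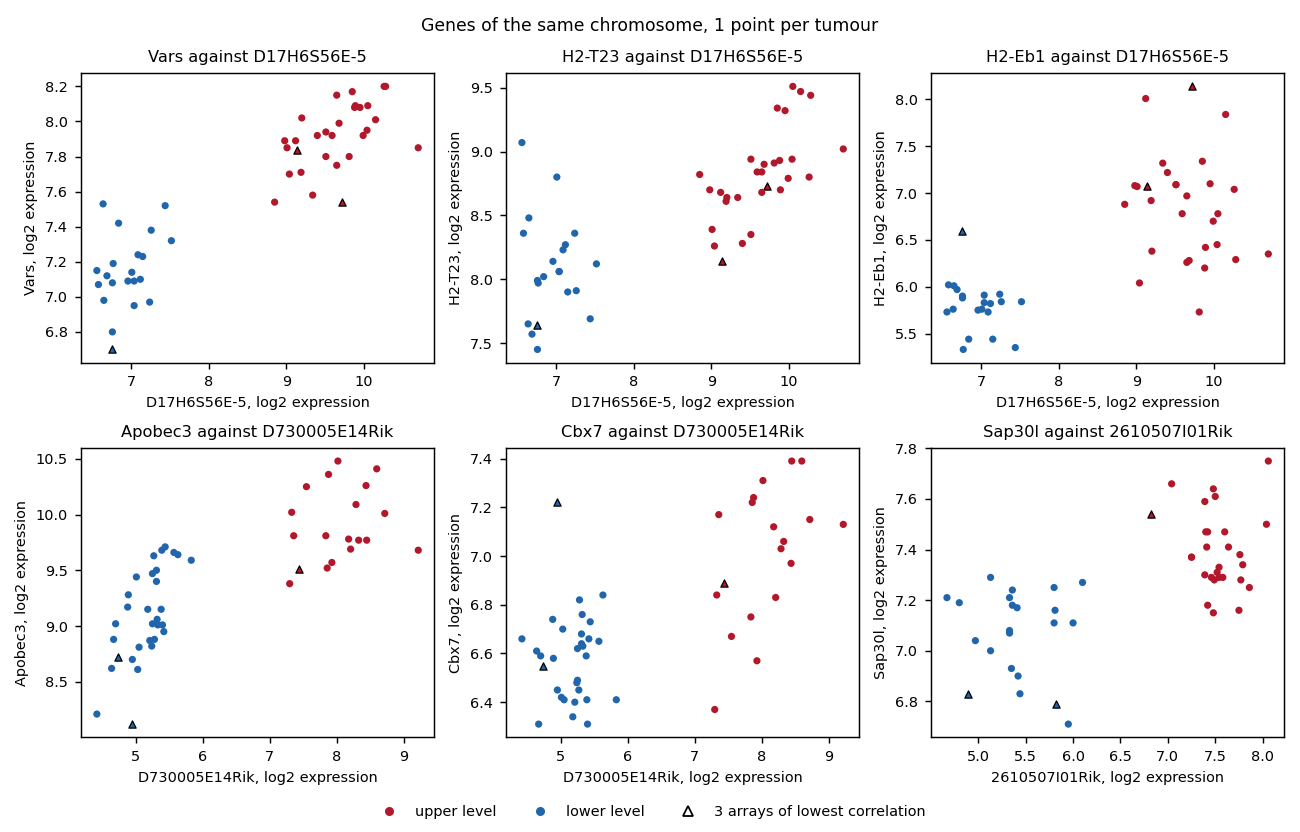
Log2 expression of 6 genes (vertical axes) against the gene with 2 levels on the same chromosome (horizontal axes), 1 point per tumour; red and blue mark the upper and lower level, triangles the 3 arrays of lowest correlation. Vars, H2-T23 and H2-Eb1 have slopes of 0.28, 0.28 and 0.34 on D17H6S56E-5, Apobec3 and Cbx7 0.29 and 0.15 on D730005E14Rik, and Sap30l 0.14 on 2610507I01Rik.

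**Figure D3:**
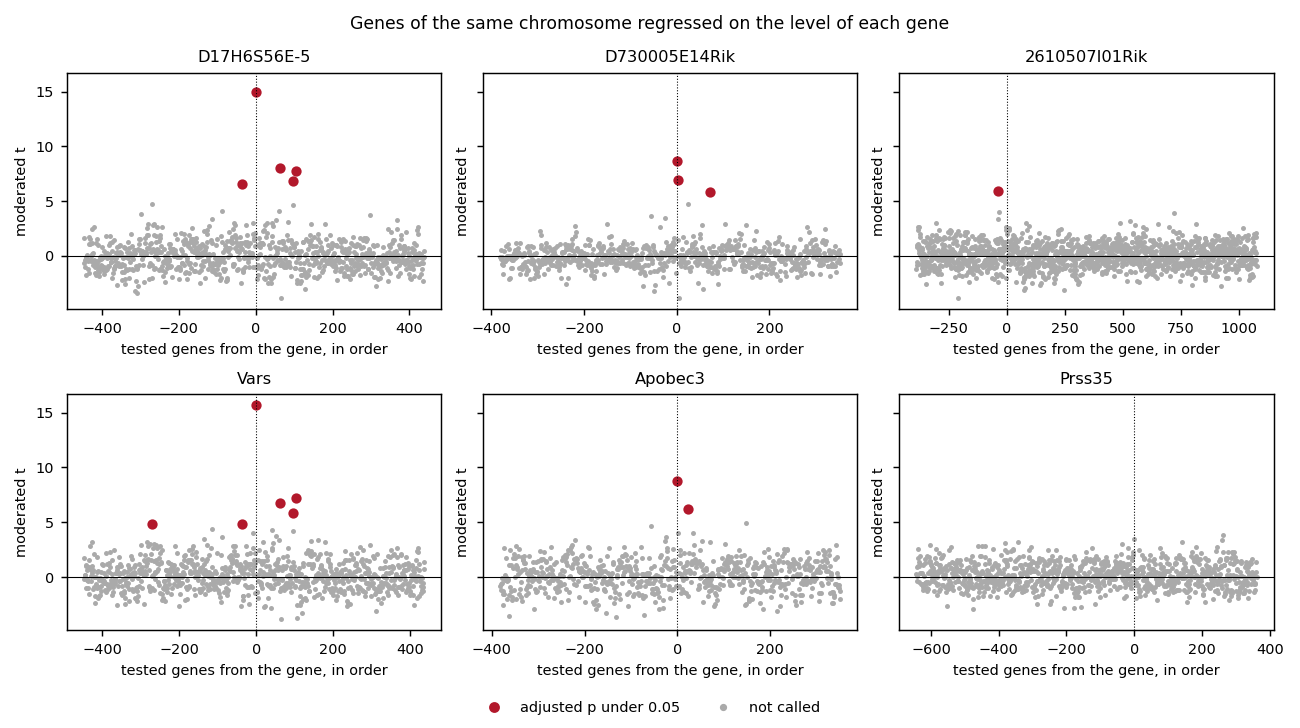
Moderated t of every tested gene of the same chromosome (vertical axis) by its place in gene order from the predictor (horizontal axis, 0 is the predictor), for 6 predictors; red points are called. Called genes lie within 105 places of the predictor except Snhg9 with Vars, and Prss35 has none.

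Values were also compared inside levels. For each of the 28 pairs of the 8 genes, values were set against the mean of the tumours on the same level, where a gene had levels that hold enough tumours. D17H6S56E-5 and Vars gave r = 0.443 and rho = 0.512, and r = 0.445 when the 2 most extreme tumours for the first gene were left out. D730005E14Rik and Apobec3 gave r = 0.432 and rho = 0.552, and r = 0.533 without 2. Both are descriptions with no test, since these pairs were chosen with their joint movement known.

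The other pairs were permuted within levels (100000 permutations, two-sided), with p adjusted over all 28 pairs. Those 28 include the 2 neighbour pairs chosen for moving together, whose small p lowers the adjusted p of the rest. The adjusted p under 0.05 given next therefore lean on these 2 pairs. No adjustment without them was made, so none of the pairs given next is read as a call. The unadjusted permutation p behind those adjusted values ran from 0.00382 to 0.0062. D730005E14Rik and 2610507I01Rik, both noncoding and on different chromosomes, gave r = 0.384 (adjusted p = 0.0302), rho = 0.416 (adjusted p = 0.0347) and r = 0.432 without 2 tumours. D730005E14Rik and Glo1 had an adjusted p under 0.05 by rho alone (0.421, adjusted p = 0.0347, against r = 0.289, adjusted p = 0.188). Vars and Glo1, far apart on chromosome 17, have no called levels, so their r = 0.396 and rho = 0.40 are plain correlations over the 50 tumours (adjusted p = 0.0302 and 0.0347), with r = 0.320 without 2. The fit across all genes did not call that pair (limma adjusted p = 0.476 with Vars as the predictor, 0.09 with Glo1). Plain correlations of D17H6S56E-5, the neighbour of Vars, with Glo1 over the 50 tumours were r = 0.334 and rho = 0.325. That pair was not called either (limma adjusted p = 0.665 with D17H6S56E-5 as the predictor, 0.179 with Glo1). Inside the levels of D17H6S56E-5, a measure unlike the plain one, it gave r = 0.026 (permutation adjusted p = 0.971). D17H6S56E-5 and D730005E14Rik gave r = 0.303 and rho = 0.0275 (adjusted p = 0.188 and 0.974). Nnt had no adjusted p under 0.05 with any of the other 7 genes.

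With the neighbour held as a covariate, an alternative added after the data were seen, each gene of a pair was read at equal levels of the other. Vars then had 372 called genes (2.06%), D17H6S56E-5 241 (1.34%), Apobec3 884 (4.9%) and D730005E14Rik 15 (0.0831%). Of 33 aminoacyl-tRNA synthetases 4, Farsa, Cars2, Tars2 and Vars2, were higher with Vars at equal D17H6S56E-5, and 4 endothelial markers of 8, Pecam1, Cdh5, Kdr and Tie1, were lower with Apobec3 at equal D730005E14Rik. Other lists also had calls in these fits. With Vars, 2 of 7 proliferation genes (Cdk1 and Mcm2) and 2 of 8 luminal markers (Cdh1 and Erbb3) were called, all higher. Of 50 class III genes 2 were higher and 1 lower. With Apobec3, 2 of 8 luminal markers, Cdh1 and Erbb2, were higher. No list is singled out by these calls. The counts of called genes rested on the arrays that stood apart. After these 3 arrays were left out they were 6 for Vars, 5 for D17H6S56E-5, 132 for Apobec3 and 3 for D730005E14Rik, with no listed gene called.

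The calls of linked MHC genes were mostly lost in these fits. D17H6S56E-5 and Vars had r = 0.911, so separate slopes are less precise here, and a lost call does not show a lost relation. The SE of H2-Eb1 on D17H6S56E-5 was 0.12 with Vars as a covariate and 0.05 without it. Without it the slopes of H2-T23 and H2-M2 on D17H6S56E-5 were 0.28 and 0.21. At equal Vars, H2-Eb1 had a slope of 0.50 on D17H6S56E-5 (adjusted p = 0.0337), while H2-T23 (0.27, adjusted p = 0.0756), H2-M2 (0.21, adjusted p = 0.122) and 9130008F23Rik (0.14, adjusted p = 0.204) were not called. With the 3 arrays also left out H2-Eb1 was not called either (0.35, adjusted p = 0.218). At equal D17H6S56E-5, H2-T23 and H2-M2 had slopes of 0.03 and 0.01 on Vars (adjusted p = 0.968 and 0.985), H2-Eb1 -0.57 (adjusted p = 0.445) and 9130008F23Rik 0.21 (adjusted p = 0.578).

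Nnt differed from the 6 genes above in that the genes that followed it were spread over the genome. Over all 50 tumours 3039 genes were called (16.8%), 1873 higher and 1166 lower where Nnt was higher, with 115 of 658 on its own chromosome 13 (17.5%). The count rested on few arrays. Without mid79, mid60 and mid100 the count was 165 (0.914%), and without mid60 and mid7, the 2 tumours farthest from its median, it was 234.

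Tmem175, which codes for a lysosomal ion channel, led the genes that rose with Nnt, with a slope of 0.90 ± 0.10 (limma adjusted p = 1.7e-07, r = 0.786), or 0.82 without the 3 arrays (adjusted p = 0.000574). Auts2 (1.32 ± 0.16), Pbld2 (0.74 ± 0.09), the syntrophin gene Sntb1 (1.32 ± 0.18) and the adhesion receptor gene Adgrl3 (1.93 ± 0.26) followed and were still called without the 3 arrays (adjusted p of at most 0.0179). Their slopes were then 0.71, 0.72, 0.61 and 0.99, so those of Auts2, Sntb1 and Adgrl3 were over 1.5 times smaller. Tmem175 ran from 5.78 in mid60 over a median of 7.19 to 7.89 in mid7, the same 2 tumours as the ends of Nnt.

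Among genes that fell, Gpc1, a glypican, had -0.99 ± 0.14 and Nampt, the rate-limiting enzyme of NAD salvage, -0.89 ± 0.13 (adjusted p = 1.12e-05 and 1.96e-05). Both were still called without the 3 arrays, at -0.50 and -0.88 (adjusted p = 0.0448 and 0.00864). Ppfia3 had -0.37 ± 0.06 and kept its call at -0.30. Gm7850 and Plk3, a stress-responsive kinase gene, had -0.84 ± 0.13 and -1.19 ± 0.19 and lost theirs (adjusted p = 0.085 and 0.0854).

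Over all 50 tumours many interferon genes were lower where Nnt was higher. Of 14 tested genes for retrovirus restriction and interferon response, 12 were called lower where Nnt was higher and 0 were called higher. The median slope was -1.334 against 0.008 over all genes. Of all 18044 genes 16.8% were called, with 1166 called lower. Isg15, the ubiquitin-like interferon product, had -1.37 ± 0.30 (adjusted p = 0.00137), Rsad2, also called viperin, -1.54 ± 0.38 (adjusted p = 0.00337), and Oas2, a synthetase of the antiviral messenger 2-5A, -2.05 ± 0.55 (adjusted p = 0.00732). Without the 3 arrays, where 0.914% of all genes were called, the median slope was -1.32. Of the 14 genes 4 were called there, all lower, namely Mx1, Ifit1, Isg15 and Rsad2. Their slopes were then -1.08, -2.60, -1.52 and -1.99, with adjusted p of 0.0443, 0.0404, 0.0319 and 0.0239. When mid60 and mid7 were left out in their place, 234 of all 18044 genes were called. Of the 14 genes 1 was called, Rsad2 (adjusted p = 0.0312), with a median slope of -1.24 over the list. Isg15, Mx1 and Ifit1 were not called (adjusted p = 0.0684, 0.0952 and 0.103). Isg15 over all tumours had r = -0.539 and rho = -0.482 with Nnt, with much scatter in the plot of Nnt and Glo1. Their part in the spread of Nnt was not tested. The list also leaned lower with Glo1. Without the 3 arrays its median slope on Glo1 was -1.22, with 0 genes called. There 9 of the 14 had an unadjusted limma p under 0.05, against 13 with Nnt. Without the 2 tumours farthest for Glo1 the median slope was -1.04, with 2 of the 14 at such a p and 0 called.

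Calls among markers of other cells rested on the 3 arrays. All 5 B cell and all 5 skin markers tested fell with Nnt over the 50 tumours, with median slopes of -1.032 and -1.225. Without the 3 arrays 0 of 5 were called in each, with median slopes of -0.01 and 0.01, and Krt1 and Krt10, keratins of the epidermis, turned to 0.14 and 0.12. Epcam, Erbb2 and Erbb3 of the 8 luminal markers rose (0.69 ± 0.19, 0.99 ± 0.20 and 0.86 ± 0.25) and Krt19 fell, and 0 of 8 were called without the 3 arrays. Of 8 T and NK cell markers Cd3g and Nkg7 fell (-0.69 ± 0.21 and -0.32 ± 0.11), and 0 of 8 were called in that smaller set of tumours.

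Enzymes of related function were set against the 16.8% of all genes called with Nnt. Among 14 other mitochondrial NADPH and redox enzymes 1 was called, Me2, a mitochondrial malic enzyme, which fell (-0.70 ± 0.17, adjusted p = 0.00256), and 0 without the 3 arrays. Of 34 aminoacyl-tRNA synthetases 3 rose, all of them mitochondrial, namely Cars2 (0.42 ± 0.08), Wars2 and Yars2, and these too were not called without the 3 arrays. On chromosome 13, Mrps30, a protein of the mitochondrial ribosome 2 places away, rose with Nnt (0.36 ± 0.10, adjusted p = 0.0121) and Hmgcs1, of cholesterol synthesis, 4 places to the other side, fell (-0.79 ± 0.18, adjusted p = 0.0017). Without the 3 arrays Mrps30 was still called (0.49 ± 0.11, adjusted p = 0.023) and Hmgcs1 was not (-0.17 ± 0.17, adjusted p = 0.688). Hmgcs1 was highest, at 10.45, in mid60, and its rank correlation with Nnt was -0.249. The 2 genes next to Nnt, Fgf10 and Paip1, were not called (-0.34 ± 0.21 and 0.12 ± 0.07).

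**Figure D4:**
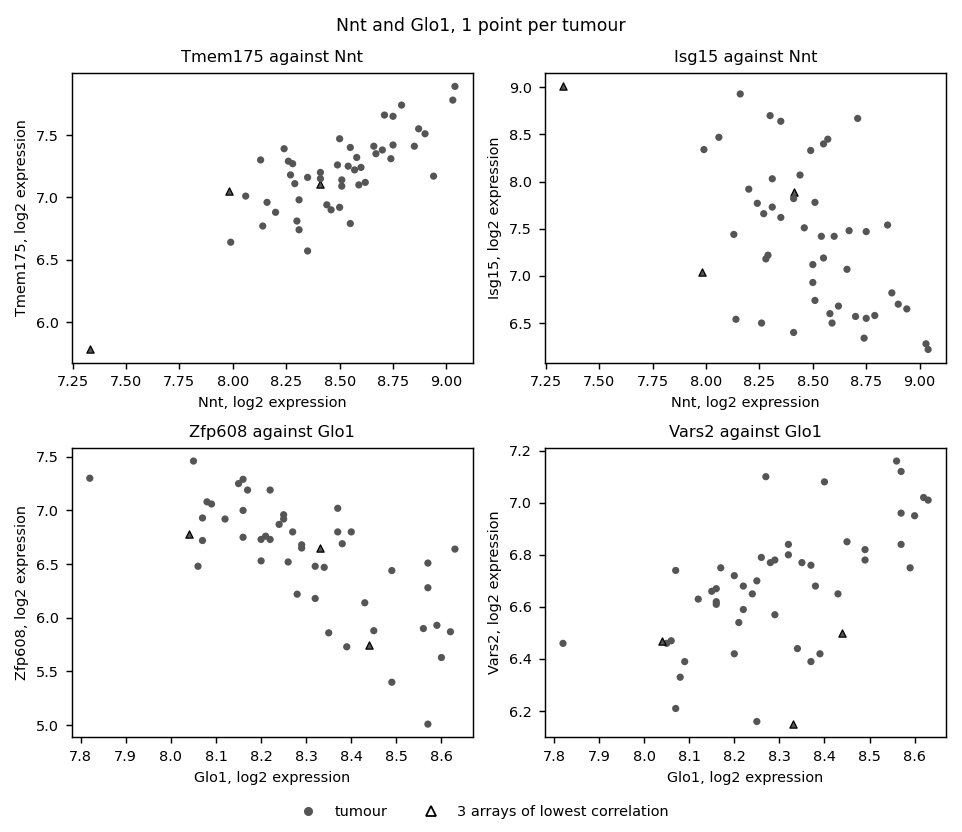
Log2 expression of 4 genes (vertical axes) against Nnt or Glo1 (horizontal axes), 1 point per tumour, with triangles for the 3 arrays of lowest correlation. Mid60 lies alone at 7.33 for Nnt, and Zfp608 has a slope of -2.09 on Glo1.

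**Figure D5:**
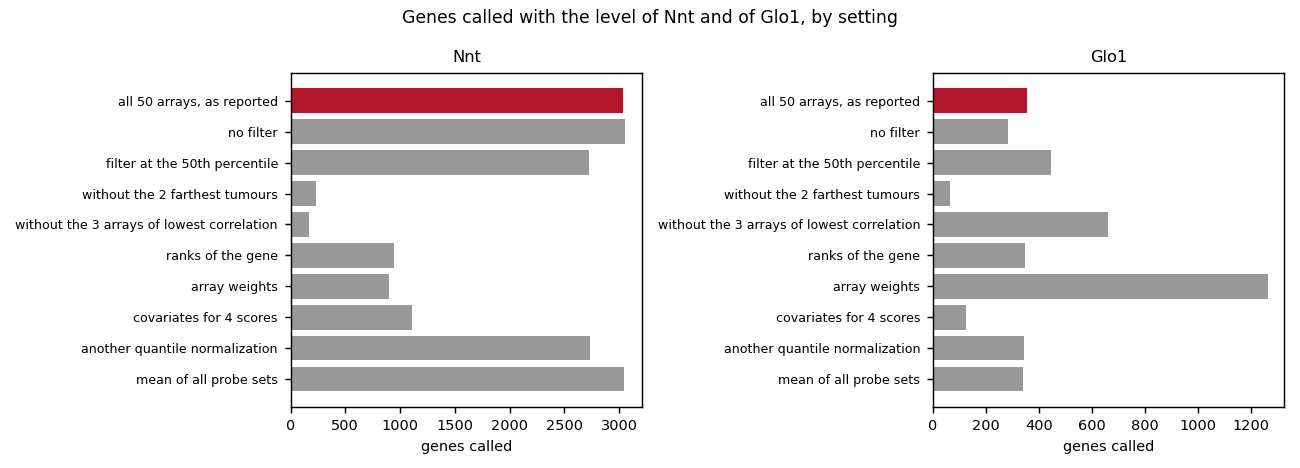
Number of genes called with Nnt (left) and Glo1 (right) over all 50 arrays (red bars, 3039 and 357) and under 9 other settings (grey bars). The count for Nnt falls to 165 without the 3 arrays of lowest correlation, where that for Glo1 is 661.

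Glo1 had 357 called genes (1.98%), 217 higher and 140 lower, with 14 of 885 on chromosome 17 (1.58%). Without the 3 arrays the count was 661 (3.66%), and without the 2 tumours farthest from its median, mid177 and mid101, it was 65. Zfp608, a zinc finger gene, was the strongest, with a slope of -2.09 ± 0.29 (limma adjusted p = 3.5e-05, r = -0.718), and it ran from 5.01 in mid54 over a median of 6.69 to 7.46 in mid75. C9orf72 (-1.48 ± 0.28), the zinc finger genes Zfp292 (-1.33 ± 0.26) and Rlf (-1.34 ± 0.26) and the ubiquitin-conjugating enzyme gene Ube2j1 (-1.37 ± 0.27) also fell. All 4 lie on chromosome 4. The share of genes called on that chromosome was not counted, so no pattern is read from this.

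Among genes that rose with Glo1, Cnmd, which codes for chondromodulin, had the steepest slope of those named, 7.02 ± 1.19 (adjusted p = 0.00123). Cnmd spanned 4.55 in mid60 to 10.87 in mid11, so a small difference in Glo1 went with a large one in Cnmd. Epb41l4a had 2.20 ± 0.35, Prr15l 1.98 ± 0.33, the sphingomyelin synthase gene Sgms1 1.27 ± 0.22 and Setbp1 1.42 ± 0.25. All 10 genes named so far with Glo1 were called without its 2 farthest tumours and without the 3 arrays.

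Of 8 tested enzymes that handle methylglyoxal, 2 were called with Glo1, against 1.98% of all genes, and 6 were not. Akr1a1, an aldehyde reductase, fell (-0.79 ± 0.18, limma adjusted p = 0.0154). Ldhd, a D-lactate dehydrogenase that uses the end product of the glyoxalase pathway, rose (2.27 ± 0.60, adjusted p = 0.0326). Akr1a1 lies on chromosome 4, as do C9orf72, Zfp292, Rlf and Ube2j1, which also fell. The median slope of the list was -0.136 against 0.015 over all genes. Ldhd was not called without mid177 and mid101 (adjusted p = 0.0785), nor was Slc44a4, named next (adjusted p = 0.176). In the MHC on the same chromosome, over 100 places away, Vars2, the mitochondrial valyl-tRNA synthetase gene, rose (0.78 ± 0.16, adjusted p = 0.00548), as did Lsm2 (0.73 ± 0.17) and Slc44a4, a choline transporter-like gene (0.88 ± 0.24). Lsm2 and Slc44a4 were the only called genes of 50 in the class III list. Vars2 was the only one of 34 aminoacyl-tRNA synthetases. Set against the 1.98% called over all genes, no pattern is read from these. Of the 10 nearest neighbours of Glo1 none was called, and of the 20 within 10 places 0 had an unadjusted p under 0.05, against 15.9% on other chromosomes. The mitochondrial peroxiredoxin Prdx3 (0.60 ± 0.17) was the 1 called gene of 15 redox enzymes, and it too was not called without mid177 and mid101 (adjusted p = 0.0998).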

How the data were processed

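RNA of 50 tumour biopsies was hybridised to 1 Affymetrix array each. The deposited log2 values were made by the authors with RMA, per the submitters' processing notes, which also name mm8 without a role. No array intensities or read depths were used, so the number of arrays limits the precision. RMA forces the arrays onto like distributions, which can shift values on arrays of unlike tissue.

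Of 34472 probe sets, 23521 had 1 gene symbol, 1814 several and 9137 none in GEO's platform annotation, and 23328 of the first matched RefSeq names. Per gene the probe set of highest mean was kept. Genes with a mean of at least 4.09 (the 25th percentile) were tested with limma 3.58.1 in R 4.3.3 (lmFit, eBayes with trend) by regression on each of the 8 genes, with Benjamini-Hochberg adjustment over all genes. Mixtures were fitted with mclust 6.1.1. Gene order and sequences are RefSeq's (GRCm38.p6).

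The 8 genes and all gene lists were chosen with earlier results of these data known. Named genes were, per predictor, the called genes with the 5 largest positive and 5 largest negative moderated statistics that kept their sign without the 2 most extreme tumours, the 5 nearest tested genes on each side, and called genes of the lists. Snhg9, Ubtd1, Nr6a1 and Tfap2b were named after their values were seen. Alternatives were other filters, left-out tumours, ranks, array weights, score covariates, quantile normalization and the mean of probe sets. The fits were tested on simulated data.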

Additional observations from a re-analysis of the deposited data

How the results depend on the processing

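All 5 genes called with D17H6S56E-5 were called under each of 9 settings without the neighbour as a covariate. With Vars as a covariate H2-T23, H2-M2 and 9130008F23Rik were not (adjusted p = 0.0756, 0.122 and 0.204), nor H2-Eb1 with the 3 arrays also left out (0.218). D17H6S56E-5 and Vars had r = 0.911, so slopes are less precise in those fits. The other counts moved as follows. With Vars 11 genes were called, against 4 with no filter on low values, 5 without its 2 farthest tumours, 6 without the 3 arrays of lowest correlation, 5 by ranks and 7 after another quantile normalization. With D730005E14Rik 3 became 5 with array weights and 5 with covariates for 4 cell scores, all on its chromosome. With Apobec3 2 became 4 at a filter at the 50th percentile, 6 with weights and 4 with covariates (6 and 4 on its chromosome). With 2610507I01Rik 1 became 2 with no filter and 0 by ranks, also on its own chromosome. With Prss35 0 became 41 by ranks (6 on its chromosome) and 3 with weights.

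With Nnt 3039 became 234 without its 2 farthest tumours, 165 without the 3 arrays, 941 by ranks, 897 with weights and 1112 with covariates, and its own chromosome had 18, 7, 46, 40 and 38 in place of 115. With Glo1 357 became 65, 661, 1262 and 125 without its 2 farthest tumours, without the 3 arrays, with weights and with covariates, and its own chromosome had 5, 39, 68 and 8 in place of 14.

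With the neighbour as a covariate, added after seeing the data, the counts were 241 for D17H6S56E-5, 372 for Vars, 15 for D730005E14Rik and 884 for Apobec3, with 15, 24, 5 and 48 on the own chromosome. With the 3 arrays also left out, they were 6 for Vars and 132 for Apobec3, with 0 for D17H6S56E-5, 1 for Vars and 10 for Apobec3 on the own chromosome.

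The BIC difference of Vars passed 10 at 11.9 without the 3 arrays and at 12.4 after quantile normalization. By the widest gap with at least 5 tumours on each side, the upper tumours of Apobec3 numbered 8, of Nnt 32 and of Glo1 8. Those of Glo1 also numbered 8 with unequal variances. That fit could not be made for Nnt.

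Slopes on Nnt turned without the 3 arrays for Cd79a (0.03), Ms4a1 (0.10), Krt1 (0.14), Krt10 (0.12), Krt19 (0.01) and Lor (0.01), and without its 2 farthest tumours for Krt1 (0.14), Krt10 (0.12), Krt19 (0.0) and Lor (0.01). Ddx39b on Nnt turned to -0.04 with the mean of probe sets. With D17H6S56E-5 as a covariate H2-Eb1 on Vars turned to -0.57, and without the 3 arrays as well to -0.03, with H2-T23 at -0.10. The cause was not tested. No paired analysis was possible because the labels give 1 group and no shared numbers.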
